A study of Caenorhabditis elegans with 2 samples.

Results

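The str class of Caenorhabditis elegans, a family of predicted chemoreceptors, was examined for peaks of the cohesin subunit REC-8. The class comprised 193 of the 19973 protein-coding genes on the 6 nuclear chromosomes and was taken as every protein-coding gene whose symbol starts with str-. Chromatin immunoprecipitation followed by sequencing had been carried out on whole young adult hermaphrodites (strain YL581) grown for 50 hours from L1 larvae that had been synchronized by starvation. All worms carried a C-terminal GFP-FLAG tag on REC-8, so there is 1 group, REC-8-GFP, with 2 biological replicates, both from a single transgenic line and each citing a protocol document of its own. The labels give an anti-GFP antibody in one field and rec-8 in another. No worms without the tag were analysed here.

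Chemoreceptors of this kind are predicted seven-pass membrane proteins of the G-protein-coupled type, and many are expressed in the ciliated sensory neurons of the head and tail. They sense odours, pheromones and other small molecules, and signal through G proteins, cyclic GMP and ion channels. The str class belongs, with srd, srh, sri and srj, to the Str superfamily, which expanded by local duplication, above all on chromosome V. REC-8 is a kleisin, the subunit that closes the cohesin ring, and is known mainly from meiotic chromosomes of the germ line. Peaks from whole worms do not say in which cells the protein lay on a gene.

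Counts rest on 3 relaxed peak lists, which keep weak peaks as input for a reproducibility analysis, for the pooled replicates (10019 peaks), replicate 1 (17532) and replicate 2 (14069). The thresholded list is the authors' stricter set, 739 peaks kept for their reproducibility. A gene was counted when the summit of a peak, its highest point, lay from 1000 bp upstream to 500 bp downstream of one of its transcript starts. The class was chosen by its symbols, but with the share of its members that hold a summit in these same lists already known. That share is therefore given as a description, beside the background and with no test. The files hold no read counts, so the depth behind each peak is unknown, and a missing summit does not show that REC-8 was absent.

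The 4 str summits with the highest pooled signal are shown first, since they are the strongest positions of the class in the list made from both replicates. Each is 201 bases of the plus strand of ce11, read from RefSeq's copy of that assembly, with the 21 bases centred on the summit in capitals. They lie at V:3106802-3107002 (str-68), V:16573029-16573229 (str-149), V:9249109-9249309 (str-94) and V:3648810-3649010 (str-114). Their GC contents were 46.3%, 43.8%, 33.8% and 34.3% in that order. Within each of the 4 sequences, 100% of the 32-base words occurred only once in the nuclear genome.
str-68: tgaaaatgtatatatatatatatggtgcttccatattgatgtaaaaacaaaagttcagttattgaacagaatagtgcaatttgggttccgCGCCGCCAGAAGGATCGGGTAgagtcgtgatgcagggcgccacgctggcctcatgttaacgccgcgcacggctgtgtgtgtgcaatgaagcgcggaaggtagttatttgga
str-149: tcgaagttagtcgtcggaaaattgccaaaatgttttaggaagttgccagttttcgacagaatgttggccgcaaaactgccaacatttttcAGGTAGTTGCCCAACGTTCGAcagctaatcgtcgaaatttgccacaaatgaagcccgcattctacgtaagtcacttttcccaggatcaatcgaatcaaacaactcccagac
str-94: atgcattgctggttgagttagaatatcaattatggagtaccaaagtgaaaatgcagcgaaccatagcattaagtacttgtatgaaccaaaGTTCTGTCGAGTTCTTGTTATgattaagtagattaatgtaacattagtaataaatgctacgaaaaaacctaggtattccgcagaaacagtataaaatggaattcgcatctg
str-114: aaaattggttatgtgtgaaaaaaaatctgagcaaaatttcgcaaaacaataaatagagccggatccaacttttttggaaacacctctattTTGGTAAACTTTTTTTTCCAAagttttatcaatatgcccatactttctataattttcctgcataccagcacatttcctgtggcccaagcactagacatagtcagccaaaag

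str genes had summits less often than protein-coding genes as a whole in each list. In the pooled list 13 of 193 str genes held a summit (6.74%, exact 95% interval 3.63 to 11.2), against 21.0% of all protein-coding genes. In replicate 1 it was 32 (16.6%, interval 11.6 to 22.6), against 31.0% of all protein-coding genes. In replicate 2 it was 21 (10.9%, interval 6.86 to 16.2), against 26.6%. The intervals cover counting error only and treat genes as independent, although neighbours can share a summit. Both replicates had a summit at 8 str genes (4.15%), against 15.6% of all protein-coding genes. No str gene held a thresholded summit, against 2.35% of all protein-coding genes. A count of 0 allows a share of up to 1.55% by the limit of 3 counts and up to 1.89% by the exact interval. The share of str genes was 0.32 of the all-gene share in the pooled list, 0.54 in replicate 1 and 0.41 in replicate 2.

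The setting on the chromosomes was matched next, because str genes are concentrated in a few regions. Of the 193 genes, 157 lay on V, 27 on IV, 5 on X and 4 on the other autosomes. Each chromosome was divided into a left end, a middle and a right end, the ends being the outer 30% of its length. There were 142 str genes (73.6%) in such ends, and 175 in the 4 regions that held at least 10 of them. These were the left end of IV and all of V. In the pooled list 13 of the 175 str genes of these regions (7.43%) held a summit, against 18.1% of the other 5731 protein-coding genes there. In replicate 1 it was 28 str genes (16%), against 28.3% of the others, and in replicate 2 it was 21 (12%), against 22.6%. For both replicates it was 8 str genes (4.57%), against 12.8% of the others. In the thresholded list it was 0 str genes, against 1.85% of the others. The exact limit of 1.89%, which is for all 193 str genes, does not set them apart. No limit was computed for the 175. With each region weighted by its number of str genes, the other genes were at 17.7% in the pooled list, 27.8% in replicate 1 and 22.4% in replicate 2, so the str class stayed lower in each list.

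**Figure D1:**
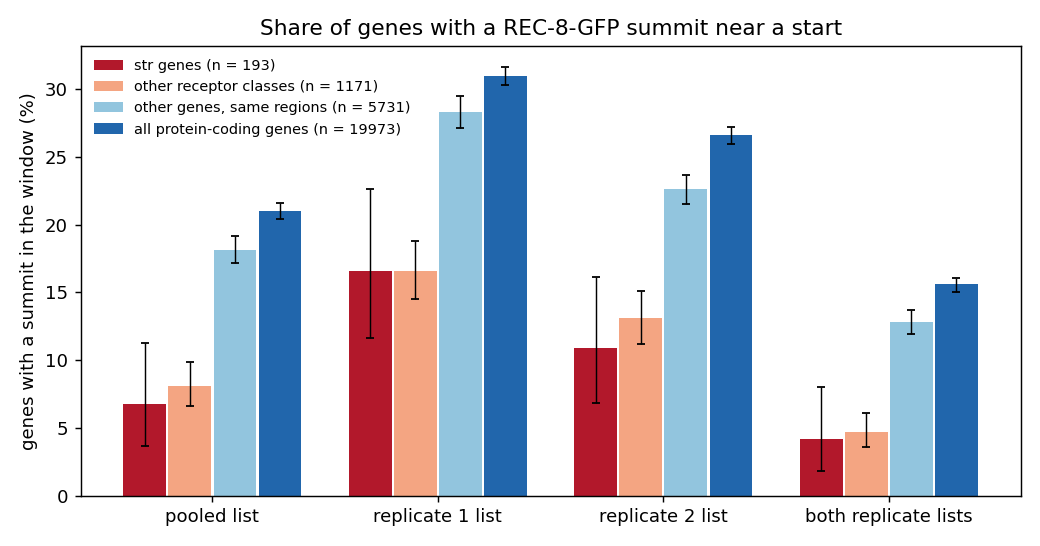
Share of genes with a summit in the window, in percent, for str genes, the other chemoreceptor classes, the other protein-coding genes of the 4 regions rich in str genes, and all protein-coding genes. Bars are shares, over all 193 genes for the str class, and error bars exact 95% binomial intervals. In the pooled list str genes stood at 6.74% and all protein-coding genes at 21.0%, with the other receptor classes at 8.11%.

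The other receptor classes had low shares too. A pooled summit was held by 6.74% of str genes and 8.11% of the 1171 genes of the other chemoreceptor classes. A replicate 1 summit was held by 16.6% of each, and a replicate 2 summit by 10.9% of str genes and 13.1% of the others. The difference was not tested. Of the closest relatives, srh had pooled summits at 21 of 220 genes (9.55%), srd at 6 of 67 (8.96%), sri at 4 of 61 (6.56%) and srj at 4 of 39 (10.3%). In replicate 1 the order differed, with srj at 28.2%, srh at 19.1%, str at 16.6%, sri at 16.4% and srd at 8.96%. In replicate 2, srj was at 23.1%, srh at 15.5%, srd at 11.9%, sri at 11.5% and str at 10.9%. Without any receptor class, the other genes of the same 4 regions were at 19.7% in the pooled list, close to the 18.1% with them.

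Within the class, the right end of V had the highest share in the pooled list and in replicate 2. There, 7 of 56 str genes held a pooled summit (12.5%), against 15.7% of the other genes. The left end of V had 4 of 58 (6.90%), against 17.0%. The middle of V had 1 of 43 (2.33%), against 18.6%. The left end of IV had 1 of 18 (5.56%), against 22.6%. In replicate 1 the 3 regions of V were alike, at 17.2%, 16.3% and 16.1% from left to right. These counts are small, and the differences between regions were not tested. The 5 str genes on X had no pooled summit, and 1 of them, str-124, had a summit in replicate 1.

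**Figure D2:**
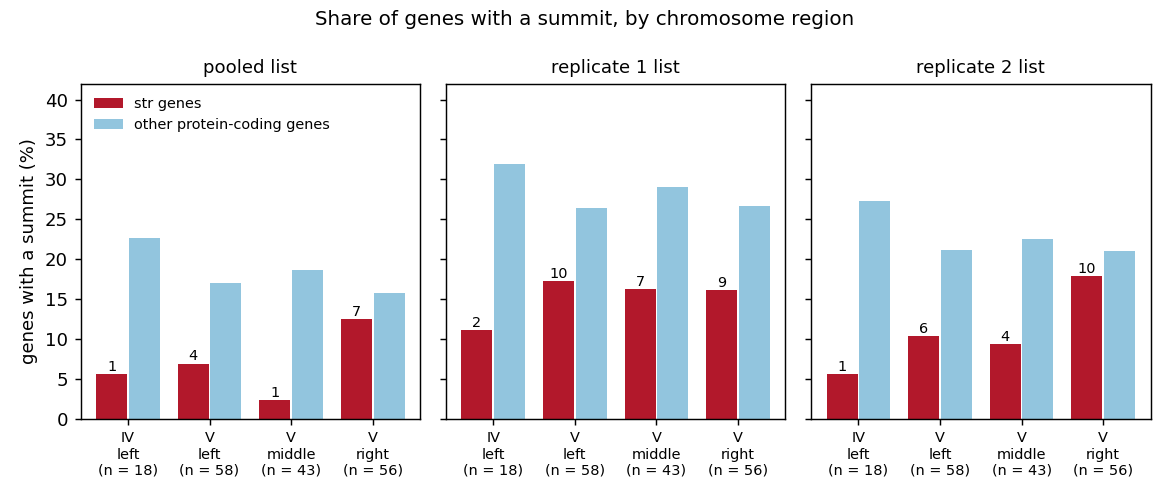
Share of genes with a summit, in percent, in the 4 chromosome regions with at least 10 str genes, for str genes and for the other protein-coding genes of the region. Numbers over the bars count the str genes with a summit, 7 of 56 in the right end of V in the pooled list, and n is the number of str genes. The str bar is the lower one in each region and list.

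Many str genes stand in rows. Taken along the chromosomes, the class fell into 129 runs with no other protein-coding gene between members. Of these, 94 were single genes, 27 were runs of 2 or 3 and 8 were runs of 4 or more. A summit in at least 1 relaxed list was found at 22 of 94 single genes (23.4%), 14 of 63 genes in runs of 2 or 3 (22.2%) and 9 of 36 genes in longer runs (25%). Over all protein-coding genes this share was 42.4%, and 21.0% in the pooled list. In the pooled list it was 7 single genes (7.45%), 5 genes in runs of 2 or 3 (7.94%) and 1 gene in a longer run (2.78%), counts too small to compare. The longest run, 6 genes on IV from str-173 to str-166, held summits at 2 genes, str-170 and str-174. Of the 2 runs of 5, both on V, the one from str-138 to str-144 held summits at 2 genes and the one from str-6 to str-9 held none. In the windows of str-6, str-43, str-5 and str-8, 4 of the 5 genes of the second of these runs, only 66.2%, 56.3%, 45.3% and 0% of the 32-base words occur once in the genome.

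Of the 193 members, 148 had no summit in any relaxed list and 45 (23.3%) had one in at least 1 list, against 42.4% of all protein-coding genes. All 13 genes with a pooled summit also had a summit of at least 1 replicate in the window. The pooled list was made from these same replicates. The share was not counted for all protein-coding genes, so it is not given as a trait of the class. In all 3 lists there were 7 genes (3.63%), against 13.2% of all protein-coding genes and 3.5% of the other receptor classes. These 7 were str-68, str-69, str-89, str-106, str-114, str-149 and str-206. A summit in 1 list only was found at 31 genes, 20 in replicate 1 and 11 in replicate 2. Genes with a summit in 1 list only were not counted over all protein-coding genes, so this number has no background. str-171 had a summit in each replicate list and none in the pooled list. Where both replicates had a summit, the summits lay close together at 7 of 8 str genes, within 200 bp of each other. Of these, str-68 and str-69 share 1 pair of summits, 124 bp apart, which is thus counted for both genes. Among all protein-coding genes with a summit in both replicates, the summits lay within 200 bp for 74.1%. The exception was str-171, with 282 bp.

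str-68 and str-69 share the strongest pooled peak of the class. Both encode predicted receptors and are neighbours on the minus strand of the left end of V (str-68, WBGene00006130, V, 3106228 to 3107550; str-69, WBGene00006131, 3104790 to 3105910). The pooled peak (3106687 to 3107116) had a signal of 58.6 and rank 2540 of 10019. Its summit lay in an intron of str-68, 127 bp upstream of the nearer of 2 annotated starts and 992 bp upstream of the start of str-69. The replicate signals were 32.9 in replicate 1 (rank 3079) and 29.3 in replicate 2 (rank 3817), with summits 124 bp apart. The summit was nearer to the start of str-68 in each relaxed list, and the count of str-69 rests on it alone.

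str-149 (WBGene00006196, right end of V) had an intergenic pooled summit 339 bp upstream of its start, in the window of no other protein-coding gene. The signal was 56.5 (rank 2900) in the pooled list and 34.5 in replicate 2 (rank 2066), the highest of the class in that replicate. In replicate 1 it was weaker, at 24.8 (rank 8978), although the summits lay 22 bp apart. Signals are in the peak caller's units, which were not scaled between lists, so they are compared only by their rank.

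The other genes present in all 3 lists had lower pooled signals. str-114 had a pooled signal of 49.8 (rank 4534) at an intergenic summit 863 bp upstream, also in the window of F59B1.10. Its signal was 25.3 in replicate 1 and 26.8 in replicate 2, where the start of F59B1.10 was the nearer one. str-106 had its pooled summit in a coding exon 307 bp downstream of its start, with a signal of 48.1 (rank 5148). Its replicates had 31.8 (rank 3517 of 17532) and 20.9 (rank 12486 of 14069), the latter near the lowest of its list. Their summits lay 2 bp apart, the smallest gap of the class. str-89 had a pooled signal of 47.5 (rank 5420) at an intergenic summit 484 bp upstream, in a window shared with F59A1.12. str-206 was the weakest of these genes, with a pooled signal of 43.2 (rank 7597) at 455 bp upstream.

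Of the remaining pooled summits, 4 were matched in replicate 1 and 2 in replicate 2. str-94 had a summit in a coding exon 97 bp downstream of its start, with a pooled signal of 56.4 (rank 2923) and 29.9 in replicate 1. str-7 had one in an intron 230 bp downstream, with 48.0 in the pooled list and 34.7 in replicate 1. str-38 had 45.5 in a coding exon and str-170, the only member on IV with a pooled summit, had 42.6 in an intron. The pooled summits of str-99 (42.2) and str-101 (41.4) were found again in replicate 2 alone and lay inside other genes, F10A3.17 and Y6E2A.4. For str-99 the start of F10A3.17 was the nearer one.

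The 5 highest signals of replicate 1 were those of str-146 (35.0, rank 2397), str-7 (34.7, rank 2500), str-68 and str-69 (32.9) and str-106 (31.8). The summit at str-146 lay in a coding exon 392 bp downstream of its start. In replicate 2, str-149 was followed by str-228 (30.6, rank 3252), str-101 (30.4, rank 3329), and str-68 and str-69 (29.3). str-146 and str-228 had no summit in the other lists.

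**Figure D3:**
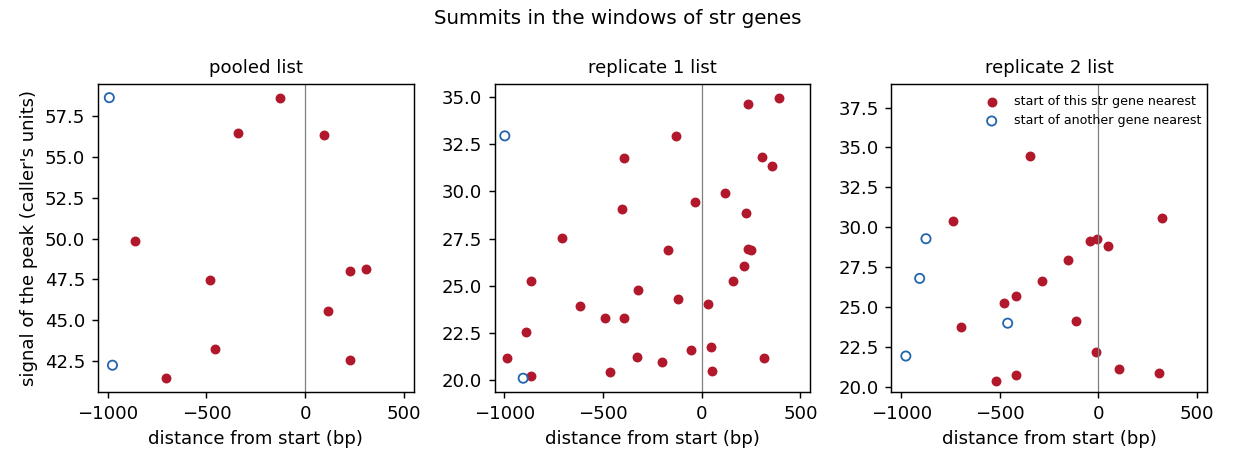
Signal of each peak, in the peak caller's units, against the distance of its summit from the nearest start of the str gene, in bp, with upstream negative. Each point is a summit paired with a str gene in the pooled, replicate 1 or replicate 2 list, so a summit in 2 windows gives 2 points, filled where the start of that gene is the nearest protein-coding start and open where another gene's is. In the pooled list the open points are str-69 at 992 bp upstream and str-99 at 976 bp upstream.

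The summits at str genes lay on both sides of the start. In the pooled list 8 of 13 lay upstream and 5 downstream, from 992 bp upstream to 307 bp downstream. With a summit counted for each str gene, 21 lay upstream and 14 downstream in replicate 1, and 17 and 4 in replicate 2. The window itself reaches 1000 bp upstream and only 500 bp downstream. The sides were not counted for all protein-coding genes, so no preference of the class is read from them. The 12 distinct pooled summits comprised 4 in intergenic sequence, 4 in introns and 4 in coding exons. In replicate 1 the 34 distinct summits comprised 16 intergenic, 11 in coding exons, 6 in introns and 1 in a UTR. In replicate 2 the 20 summits comprised 10 intergenic, 6 in coding exons, 3 in introns and 1 in a UTR. These parts were not counted for the summits of all protein-coding genes, so they describe the str summits only. The str gene's own start was the nearest protein-coding start for 11 of 13 genes in the pooled list, 30 of 32 in replicate 1 and 17 of 21 in replicate 2. Over all protein-coding genes with a summit this share was 83.8%, 86.2% and 84.9% in the same order of lists.

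The window decides which genes count, and a few summits lay close to its edge. In the pooled list the summit of str-69 (signal 58.6) was 8 bp inside it and that of str-99 (42.2) 24 bp inside. Just outside were the summits of str-79 (47.7), 5 bp past the downstream edge, and str-262 (45.5), 68 bp past it.

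The peaks at str genes were of middling signal. The strongest summit of a str gene had a median pooled signal of 48.0, with a range of 41.4 to 58.6, against a median of 51.4 over all 4197 protein-coding genes with a pooled summit. The lowest signal in the thresholded list was 92.8. The median rank percentile, where 100 is the strongest peak, was 48.3 for str genes and 59.6 for all genes with a summit in the pooled list. It was 54.3 for str genes and 59.5 for all genes in replicate 1, and 55.7 and 58.3 in replicate 2. The other genes of the 4 regions rich in str genes were nearer to the str class, with medians of 55.9, 56.4 and 55.6 in the pooled, replicate 1 and replicate 2 lists. The other receptor classes were lower, at 43.5, 40.5 and 36.96. The highest percentile of a str gene was 86.3, that of str-146 in replicate 1. With so few members, the highest values cannot be set against those of all genes.

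**Figure D4:**
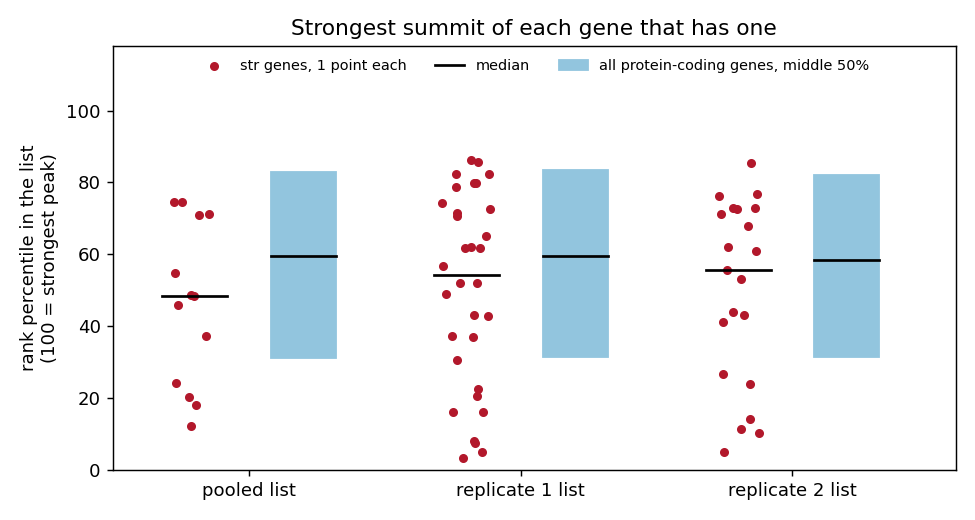
Rank percentile of the strongest summit of each gene that has one, with 100 for the strongest peak of the list. Points are str genes (13, 32 and 21 genes), boxes the middle 50% of all protein-coding genes with a summit, and black lines medians. The str medians are 48.3, 54.3 and 55.7, and no point lies above 86.3.

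The lower share was also seen per length of sequence. The str windows together held 40.03 pooled summits per Mb, against 128 in the windows of all protein-coding genes and 99.9 in the whole nuclear genome. In replicate 1 the values were 113 in str windows, 206 in all windows and 175 in the genome, and in replicate 2 they were 66.7, 169 and 140. Windows of the other receptor classes were low as well, at 56.3 pooled, 116 in replicate 1 and 90.3 in replicate 2. Inside the genes from start to end, 18 str genes (9.33%) held a pooled summit, against 23.6% of all protein-coding genes and 10.5% of the other receptor classes. Per length of gene this was 48.3 summits per Mb for str genes, 100.7 for all protein-coding genes and 61.6 for the other receptor classes. The nearest pooled summit lay a median of 5946 bp from a str start and 3308 bp from the start of a protein-coding gene in general. For the other receptor classes the median was 6652 bp. The nearest thresholded summit to any member was 1374 bp from the start of str-56.

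The windows of str genes were poor in G and C. Their median GC content was 33.4% (quartiles 31.9 and 35.2), against 35.3% (33.2 and 37.6) for all protein-coding genes. The windows of the other receptor classes were nearly as low, with a median of 33.7%. Among str genes the medians were 36.04% for the 13 with a pooled summit and 33.4% for the 180 without. Over all 3 relaxed lists this difference was not seen, since the 45 str genes with a summit and the 148 without both had a median of 33.4%. Over all protein-coding genes, windows with a pooled summit had a median of 36.6% and those without had 34.9%. All protein-coding genes were divided into 5 GC bins of equal size, and in each the str share was below that of other genes. It was 4.69% of str genes against 10.0% of other genes in the lowest bin, and 21.4% against 32.3% in the highest. The pooled share of 6.74% of str genes stood against 17.1% of other genes weighted to the GC bins of the class, and 13.8% weighted to GC bin and region together. With both weights it was 16.6% of str genes against 23.4% of other genes in replicate 1, and 10.9% against 18.7% in replicate 2. The str share was thus lower with these weights as well, by a smaller margin.

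Some members lie in sequence that occurs more than once, where short reads have no single place. The share of 32-base words that occur once in the nuclear genome was used as a measure of this, the read length being unknown. It was below 90% in the windows of 34 str genes (17.6%), against 14.8% of all protein-coding genes. Of these 34 genes, 0 had a pooled summit, 1 had a replicate 1 summit and 2 had a replicate 2 summit. Other protein-coding genes with such windows did hold pooled summits. It was 3.17% of them where at most 49.9% of the words occur once, and 16.4% where 50.1% to 89.99% do. The class had 13 and 21 genes in these 2 bins. Among the remaining 159 str genes, 8.18% held a pooled summit, against 22.3% of all protein-coding genes with such windows, so the share of str genes stayed the lower one without them.

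A pair of copies of 1 segment holds 9 of these genes. On the left end of V, the sequence from 2381157 to 2454656 recurs from 2489436 to 2562935, with 99.98% of bases alike over 73.5 kb. The first copy carries str-119, str-258, str-265, str-257 and str-267, and the second carries str-258, str-76, str-257 and str-267. The symbols str-257, str-258 and str-267 thus each stand for 2 genes, and the 193 genes carry 190 symbols. Neither copy held a summit in any relaxed list, while an even spread of the peaks of V would place 6.53 pooled, 12.1 replicate 1 and 9.01 replicate 2 summits in each. The windows of all 9 genes held 0% single-occurrence words, as did that of str-8 on the right end of V. How reads from such sequence were placed is unknown, so for these 10 genes a missing summit does not show that REC-8 was absent. The cause of the missing summits was not tested.

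**Figure D5:**
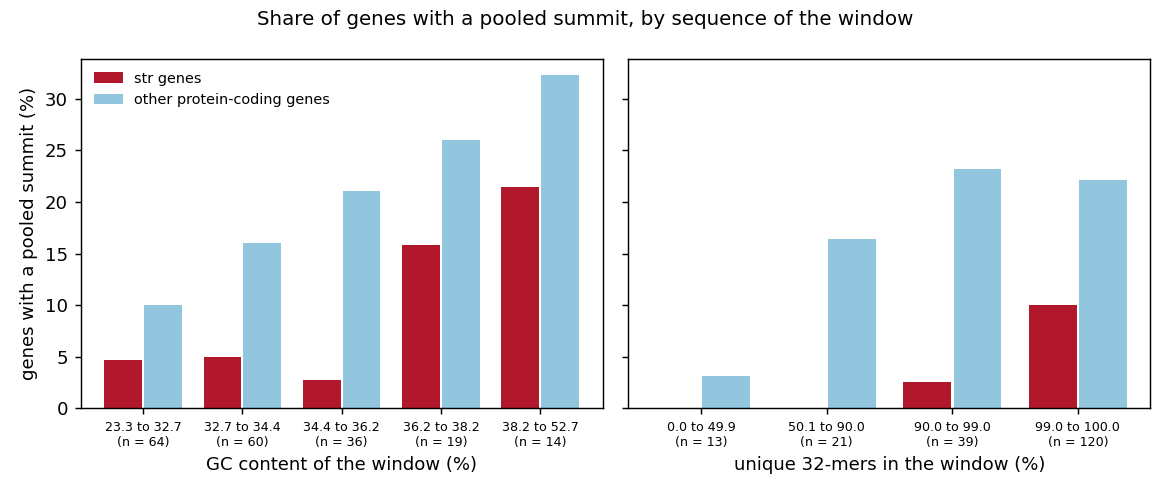
Share of genes with a pooled summit, in percent, for str genes and other protein-coding genes, by GC content of the window in 5 bins (left) and by the share of its 32-base words that occur once in the genome (right). n is the number of str genes in each bin. The str bar is the lower one in all bins, and is at 0 in both bins below 90% single-occurrence words.

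The receptors with the best-known expression were looked up one by one, too few to set against the 148 of 193 str genes with no summit in any relaxed list. str-1, used as a marker of the AWB olfactory neurons, and str-2, a marker of asymmetric expression in the AWC neurons, had none in any list, with the nearest pooled summit 6501 bp and 28626 bp from their starts. str-3, a marker of the ASI neurons, had a summit in replicate 1 only (signal 21.2, rank 14711 of 17532), in a coding exon 313 bp downstream. odr-10, the diacetyl receptor of the AWA neurons and a relative of the str genes, had none in any list.

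Other genes of the chemosensory pathway, from a list of 37 set by their known roles, showed no one direction against the background. Of the 37, 5 (13.5%) held a pooled summit, against 21.0% of all protein-coding genes. In replicate 1 it was 10 (27.0%), against 31.0%, and in replicate 2 it was 13 (35.1%), against 26.6%. Among the 16 transduction genes, 2 had a pooled summit, egl-4 (signal 46.5), a cyclic-GMP-dependent kinase, and rgs-3 (43.9), a regulator of G-protein signalling. The channel genes tax-2 and tax-4 and the guanylyl cyclase genes odr-1 and daf-11 had none in any list. Of the 7 genes of receptor trafficking and cilia, 2 had a pooled summit, unc-101 (72.8, rank 1341), a clathrin adaptor subunit, and bbs-8 (51.7), a subunit of the ciliary BBSome. In replicate 1 it was 3 of the 7 (42.9%) and in replicate 2 it was 5 (71.4%), both above the all-gene shares. The transduction genes were at 25% and 31.25%, and the regulators of receptor expression at 23.1% in each replicate. Groups this small were not tested. odr-8, which with odr-4 is needed to bring str-class and related receptors to the cilium, had a summit in each replicate (25.5 and 20.8), and odr-4 in replicate 2 only (20.3). Of the 13 regulators of receptor expression, tir-1 (48.6), an adaptor in the AWC asymmetry pathway, was the only gene with a pooled summit.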

How the data were processed

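REC-8-GFP ChIP-seq of 2 biological replicates was used as the authors' deposited ce11 peak lists. Per the file listings deposited with the samples, peaks were called against a control for each replicate and for both pooled. Each peak's deposited signal value is the peak caller's, not scaled between lists. The sources used here name no aligner or caller. The ce10 lists were not used.

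Genes were those of Ensembl release 115 on WBcel235, the assembly of ce11, and no peak passed a chromosome's end. Summits were assigned to windows from 1000 bp upstream to 500 bp downstream of transcript starts with Python 3.11.15 and pandas 2.3.3. The search was tested on simulated data. The members and gene lists were chosen with earlier results of these data known, and no test was run. Named genes were those with a pooled summit, the 5 strongest of each replicate, those at the window's edge, str-1, str-2, str-3 and odr-10. Intervals are exact 95% Clopper-Pearson intervals. The members str-8, str-56, str-124, str-171 and str-174, the runs and the repeated segment were named after their values were seen. Protein sequences were not used here.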

Additional observations from a re-analysis of the deposited data

How the results depend on the processing

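The share of str genes was below that of all protein-coding genes under every alternative run. The ratio of both shares ranged from 0.21 to 0.50 in the pooled list and from 0.51 to 0.65 in replicate 1. It ranged from 0.30 to 0.57 in replicate 2 and from 0.091 to 0.42 for both replicates. Counts followed the window and the list. With 250 bp to each side, the counts were 5 pooled, 15 in replicate 1, 7 in replicate 2 and 1 in both. From 2000 bp upstream to the gene end they were 37, 70, 53 and 29, and with peaks above the median signal of each list 5, 18, 12 and 3. With the 10000 strongest peaks of each list, replicate 1 had 20 and both replicates 4. No pooled list was made anew without 1 replicate. Only the single replicate lists already counted stand in for it, with 21 genes in replicate 2 and 32 in replicate 1, against 13 pooled. These lists are also longer, at 14069 and 17532 peaks against 10019, and the cause of the difference was not tested. The other alternatives moved no count by over 1.5 times, among them genes with 1 start and windows of at least 90% single-occurrence words, both chosen after seeing the data. Arms of 20% or 40% gave 17.6% and 17.9% for the weighted other genes. No paired analysis was possible because there is 1 group. Depth is unknown.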
